A study of Mus musculus with 6 samples.

Results

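The genes described here are 10 cell cycle arrest and p53 pathway genes of the mouse renal cortex: *Trp53*, *Cdkn1a*, *Cdkn2a*, *Cdkn1b*, *Mdm2*, *Ccng1*, *Btg2*, *Gdf15*, *Phlda3* and *Rprm*. They were chosen by symbol, with earlier results of these data known. All 10 of them, among 26903 gene symbols, were listed in each of the 6 libraries. Single cells of the renal cortex were captured with the BD Rhapsody system, 1 library per mouse, from 3 wild-type (WT) mice and 3 mice with a global *Prdm16* knockout (KO). All 6 animals were 9 months old and are labelled male. The knockout was made by removing an exon in every tissue, which shifts the reading frame, so all kidney cell types carried it. *Prdm16* encodes a zinc finger transcription factor, and the study placed it in the setting of cellular senescence. The question addressed here is in which kidney cells these genes were expressed, and whether their levels differed between WT and KO mice.

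The files held 168106 to 208226 barcodes and 96382945 to 121198131 UMIs (unique molecular identifiers, 1 for each captured transcript) per library. After filtering, 3538 to 6276 cells per library and 28488 in all were kept, with a median of 2372 to 3568 UMIs per cell, of which a median of 19.1% to 29.4% were mitochondrial. Any pair of libraries shared at most 2 barcodes. Libraries WT2 and KO1 went against their label: they carried *Xist* at 297 and 306 CPM (UMI counts scaled to a common total), against at most 0.216 CPM in the others, and 4 Y-linked genes summed to 0.0566 and 0.0613 CPM against 110 to 133 CPM. Results are therefore also given without these 2 libraries. *Prdm16* itself was measured at 32.4, 26.7 and 27.1 CPM in the WT and 21.0, 24.9 and 23.4 CPM in the KO libraries (adjusted p = 0.326), but tags at the 3′ end lie outside the deleted part and check nothing about the deletion.

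p53, the product of *Trp53*, is a transcription factor that accumulates after DNA damage and other stress and is kept low by the ubiquitin ligase MDM2, whose own gene p53 activates. Its best-known target is *Cdkn1a*, which encodes p21, an inhibitor of cyclin-dependent kinases. *Cdkn2a* encodes p16INK4a and, from another start site, p19ARF, an inhibitor of MDM2, and *Cdkn1b* encodes p27. Among the other p53 targets, *Rprm* encodes Reprimo, linked to arrest before mitosis, *Btg2* an antiproliferative factor that is also an immediate early gene, *Ccng1* cyclin G1, *Phlda3* a repressor of AKT, and *Gdf15* a secreted stress cytokine. *Cdkn1a*, *Cdkn2a* and *Gdf15* are widely used as markers of senescent cells, and in the kidney p21 rises in injured tubules.

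Promoters are shown first for the 4 members whose level differed between genotypes in at least 1 cell class, since a reader may want to see whether each holds a p53 motif. Each sequence is the 250 bases before the first RefSeq start site of the gene on its own strand, 5′ to 3′, in the GRCm38.p6 build. Capitals mark the p53 decamer motif (both strands), the AP-1 motif TGANTCA, the cyclic AMP response element core TGACGTC or the TATA motif TATAAA.
Cdkn1a (chr17:29090729-29090978, plus strand): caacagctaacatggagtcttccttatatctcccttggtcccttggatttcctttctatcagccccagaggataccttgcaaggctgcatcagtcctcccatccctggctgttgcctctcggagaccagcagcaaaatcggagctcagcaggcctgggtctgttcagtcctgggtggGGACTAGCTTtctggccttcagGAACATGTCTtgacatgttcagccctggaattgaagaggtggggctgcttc
Btg2 (chr1:134079156-134079405, minus strand): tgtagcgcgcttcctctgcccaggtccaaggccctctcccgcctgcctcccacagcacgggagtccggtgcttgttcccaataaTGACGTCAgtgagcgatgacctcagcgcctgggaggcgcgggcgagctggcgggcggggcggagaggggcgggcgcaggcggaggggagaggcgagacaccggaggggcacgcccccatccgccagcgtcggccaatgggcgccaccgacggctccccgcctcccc
Rprm (chr2:54085553-54085802, minus strand): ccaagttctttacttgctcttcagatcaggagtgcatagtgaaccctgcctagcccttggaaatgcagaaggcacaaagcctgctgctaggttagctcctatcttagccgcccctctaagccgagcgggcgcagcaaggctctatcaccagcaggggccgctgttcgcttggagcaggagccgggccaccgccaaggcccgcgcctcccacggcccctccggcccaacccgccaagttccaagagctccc
Gdf15 (chr8:70632457-70632706, minus strand): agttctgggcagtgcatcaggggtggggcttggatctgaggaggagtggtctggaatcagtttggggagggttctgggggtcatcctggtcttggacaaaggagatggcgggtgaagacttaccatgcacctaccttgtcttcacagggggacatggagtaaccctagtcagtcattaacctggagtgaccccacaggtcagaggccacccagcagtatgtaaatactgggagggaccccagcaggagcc
The *Cdkn1a* window held p53 decamers at -73 to -64 and -51 to -42 from the start, and the *Btg2* window held the cyclic AMP element core, read on both strands, between -166 and -159. None of the 4 marked motifs was found in the *Rprm* and *Gdf15* windows. Of the 10 members, *Trp53*, *Cdkn1a*, *Mdm2* and *Ccng1* (4) had a p53 decamer in a promoter window, compared with 7.126% of all 32851 windows of that length (27025 genes). The AP-1 motif stood in 6.749% of all windows and in 0 members, the cyclic AMP element core in 2.782% and in 1 member, and the TATA motif in 12.368% and in 1 member (*Trp53*). The unmarked motifs CCAAT and GGGCGG (the GC box), searched on both strands, stood in 33.85% and 32.742% of all windows and in 6 and 7 members. Different motifs overlapped at 0 places in the members' windows. These are letter matches in short windows, and sites elsewhere in the genes were not searched. *Cdkn1a*, *Cdkn2a* and *Gdf15* have 2 start sites and so 2 windows each, 13 windows for the 10 members. Counts of members and shares of single windows are therefore not like for like.

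The members lie apart in the genome (GENCODE vM21 on GRCm38, the build named for the files as mm10): *Trp53* at chr11:69580359-69591873, *Cdkn1a* at chr17:29090976-29100727, *Cdkn2a* at chr4:89274471-89294653, *Cdkn1b* at chr6:134920401-134925513, *Mdm2* at chr10:117688875-117710758, *Ccng1* at chr11:40748552-40755311, *Btg2* at chr1:134075170-134079120, *Gdf15* at chr8:70629393-70632456, *Phlda3* at chr1:135766119-135769136 and *Rprm* at chr2:54084093-54085552. *Cdkn1a* overlaps 1 other annotated gene, the opposite-strand transcript AC167363.2, and whether the counting used strand is not given in the sources used here. The other 9 overlap none.

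Cells were clustered without the members and the genes of 7 related lists (124 symbols left out), so that levels over classes are not a product of the clustering. Of 29 clusters, 26 were named from marker genes and grouped, and 13 classes had at least 10 cells in every library: proximal tubule (PT), thin limb and parietal epithelium, thick ascending limb of the loop of Henle (LOH), macula densa, distal convoluted tubule (DCT), connecting tubule (CNT), principal cells (PC), intercalated cells (IC), podocytes, endothelium, stromal and mesangial cells, macrophages, and T and NK cells. These names mean "-like" throughout, since they rest on markers. Distal classes carried markers of their neighbours: the 8 PC markers summed to 11363 to 12392 CPM in the WT and 8635 to 12120.1 CPM in the KO libraries in CNT-like cells, and the 6 CNT markers to 10737 to 13569.7 CPM in the WT and 4485 to 10933 CPM in the KO libraries in IC-like cells. PT-like cells, which make up much of the cortex, were scarce under this mitochondrial limit, at 39 to 236 cells in the WT and 11 to 37 in the KO libraries. In single cells a class level in CPM is relative to the UMIs of that class, so it does not change with the number of cells alone. These totals include mitochondrial UMIs, whose median share was 40.5% to 42.7% in the LOH-like clusters. It was 11.0% in the T and NK-like and 8.76% in the macrophage-like cluster. A larger share lowers the CPM of all other genes, and orders of classes were not computed without mitochondrial UMIs.

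The members were expressed in different parts of the cortex. Medians over the 6 libraries, WT and KO together, are given unless stated, each within 1 gene, because these counts are 3′ tags and levels of different genes were not compared. *Cdkn1a* was highest in macrophage-like cells (486 CPM), with endothelial-like (350.3), T and NK-like (335) and thin limb-like cells (329 CPM) next, and the library ranges of these neighbours overlapped. By genotype its highest mean was in macrophage-like cells in the WT (551 CPM) and in thin limb-like cells in the KO mice (514 CPM). It was lowest in podocyte-like cells (17.6 CPM). *Gdf15* had its highest level in PC-like cells (1047 CPM), with no overlap with thin limb-like cells (441 CPM), and stood at 347 CPM in CNT-like, 302 in macula densa-like, 176 in IC-like and 3.02 CPM in podocyte-like cells. *Rprm* was detected mainly in CNT-like, PC-like and IC-like cells, and its order there depended on genotype. In the WT mice it was 1.798 ± 1.76 CPM in CNT-like, 6.95 ± 1.35 in PC-like and 6.64 ± 1.31 in IC-like cells, so that CNT-like cells lay near LOH-like cells (1.69 ± 1.05 CPM). In the KO mice it was 31.1 ± 0.823 CPM in CNT-like, 41.9 ± 37.9 in PC-like and 14.9 ± 3.18 in IC-like cells. The libraries of PC-like and of IC-like cells lay apart from those of LOH-like cells, and those of CNT-like cells did not.

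In CPM of all UMIs, mitochondrial ones included, *Trp53* (143 CPM), *Cdkn1b* (318 CPM) and *Btg2* (630.1 CPM) were highest in T and NK-like cells. For *Cdkn1b* the 6 libraries lay above all those of the next class, macula densa-like cells (172 CPM). For *Trp53* they overlapped with macrophage-like cells (74.6 CPM). *Btg2* was nearly as high in LOH-like cells (542 CPM), whose mitochondrial share was larger, so which of these classes was higher is not settled. In the KO mice *Btg2* had its highest mean in thin limb-like cells (607 CPM). *Ccng1* had its highest median in IC-like cells (154 CPM, above podocyte-like cells at 133 with no overlap), but PT-like cells ran from 0 to 446 CPM and had a higher mean than IC-like cells in the WT mice (263 against 161 CPM). *Mdm2* was similar in macrophage-like (93.4 CPM) and T and NK-like cells (84.5 CPM), whose libraries overlapped, and *Phlda3* was highest in endothelial-like cells (25.8 CPM, above stromal-like cells at 12.7 with no overlap). The class with the highest median was kept for 10 of 10 members when cells were assigned from marker profiles and for 9 of 10 with a mitochondrial limit of 30%, where *Btg2* was highest in DCT-like cells.

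**Figure D1:**
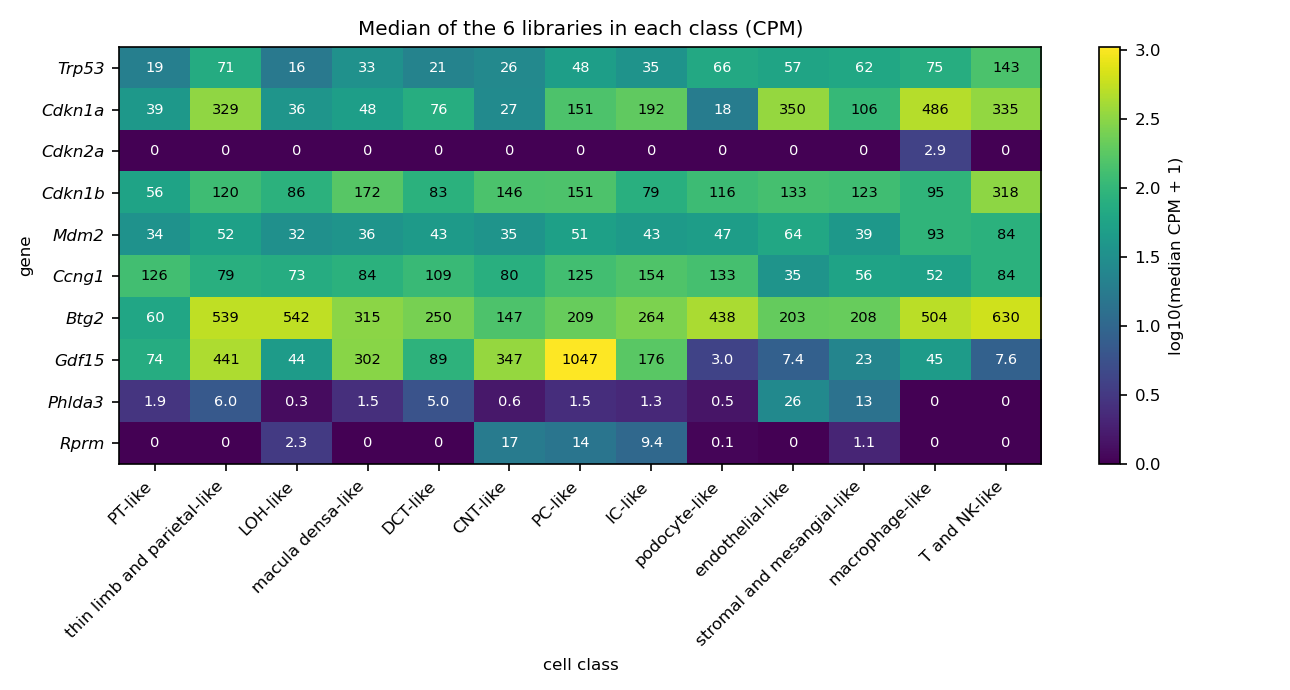
Level of each member in each cell class, as the median over the 6 libraries written in each cell in CPM and coloured by log10(CPM + 1), with genes in rows and classes in columns. *Gdf15* was highest in PC-like cells (1047 CPM), *Cdkn1a* in macrophage-like cells (486 CPM), and *Rprm* medians, which join WT and KO libraries, were 17.0 CPM in CNT-like, 13.8 in PC-like and 9.42 CPM in IC-like cells.

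Between genotypes, 93 of the 130 pairs of member and class had enough counts for the edgeR quasi-likelihood test, and 6 passed an adjusted p of 0.05 (Benjamini-Hochberg over all genes of the class): *Rprm* rose in CNT-like and PC-like cells (2 higher), and *Gdf15* in DCT-like and PC-like, *Cdkn1a* in DCT-like and *Btg2* in CNT-like cells fell (4 lower). That is 6.45% of the member tests, compared with 1.46% of all gene tests in the 13 classes. The members were chosen with earlier results of these data known, so these shares are a description and show no enrichment. Unadjusted p was under 0.05 in 23 of the 93. Among all genes, 1.44% were called in DCT-like, 2.59% in CNT-like and 2.39% in PC-like cells. No member was called in LOH-like (4.25% of all genes), podocyte-like (1.69%), macula densa-like (0.946%), IC-like (0.612%), macrophage-like (0.416%), endothelial-like (0.194%), stromal-like (0.0516%), PT-like (0.0326%), T and NK-like (0.0253%) or thin limb-like cells (0%), where 0 to 4 members per class had an unadjusted p under 0.05. The p-values measure the spread between 3 mice per group.

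In DCT-like cells the members shared a sign. All 8 members tested there had a negative log2 fold change (KO against WT), with a median of -0.50 compared with 0.00291 over all genes tested, of which 49.5% were negative, and in 4 of the 8 every KO library lay below every WT library, as in 8.25% of all genes there. In CNT-like cells 6 of 8 were negative (median -0.19), in PC-like cells 4 of 8 (median 0.01), in IC-like cells 5 of 8 (median -0.14) and in LOH-like cells 4 of 8 (median 0.05). The signs were mixed in these 4 classes.

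**Figure D2:**
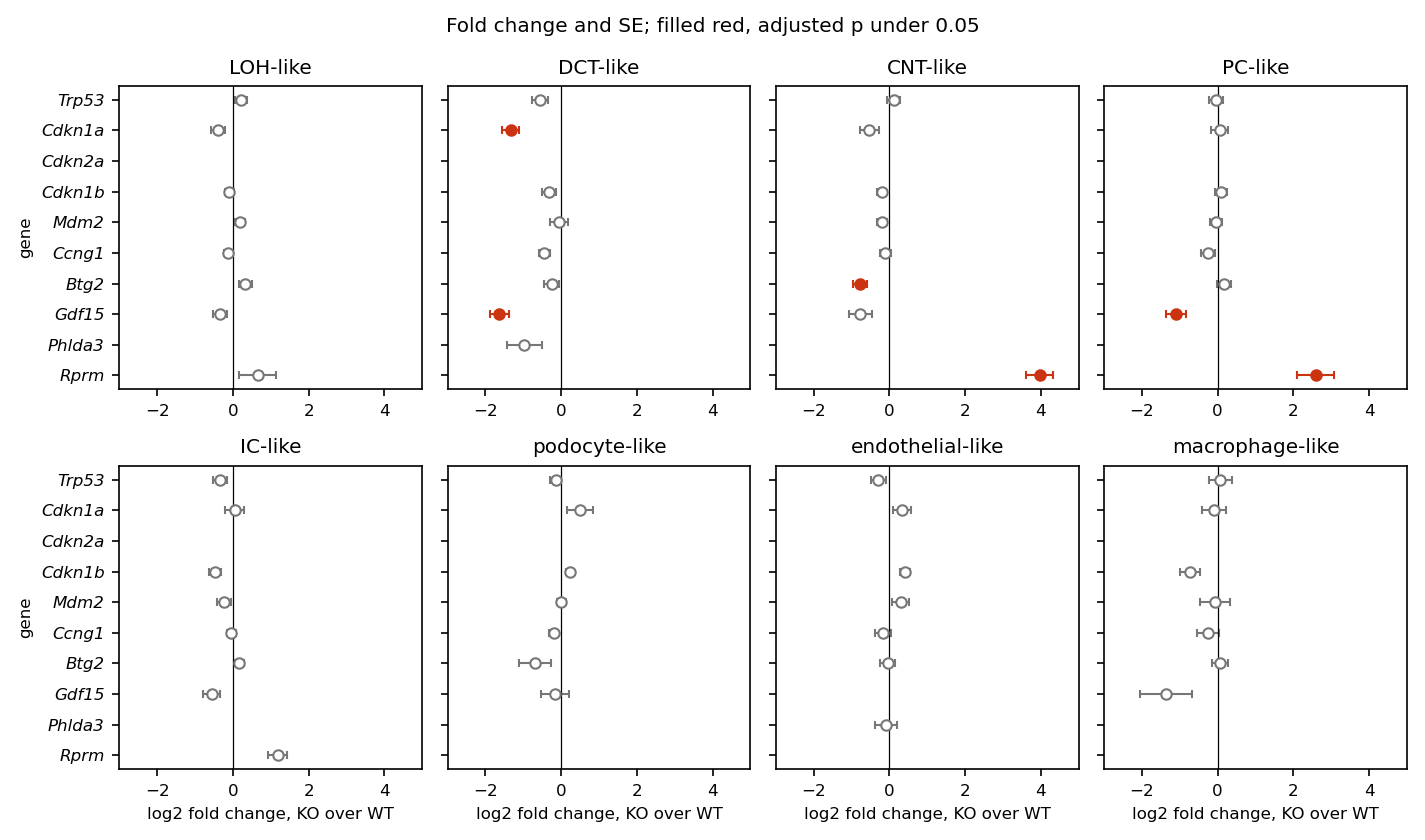
Log2 fold change (KO against WT) with its SE for each tested member in 8 of the 13 classes; filled red points passed an adjusted p of 0.05. DCT-like cells hold negative values for all 8 tested members, and the largest positive value is *Rprm* in CNT-like cells (3.96).

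Neither *Trp53* nor *Mdm2*, the gene of the main p53 antagonist, passed the test in any class tested. These are RNA counts, which do not measure p53 protein. *Trp53* was tested in 12 classes with 0 called and log2 fold changes from -0.56 to 0.22. Its lowest value was in DCT-like cells, at 25.4, 25.6 and 24.0 CPM in the WT and 14.5, 18.6 and 18.5 CPM in the KO libraries, so the KO libraries lay below the WT libraries there (log2 fold change -0.56, SE 0.205), but the adjusted p was 0.293. *Mdm2* was also tested in 12 classes with 0 called, from -0.51 to 0.45, and 0 of these had an unadjusted p under 0.05, whereas 1 of the *Trp53* tests did.

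*Cdkn1a*, the p21 gene, fell in DCT-like cells. Its level there was 86.1, 168 and 138 CPM in the WT and 65.5, 37.2 and 47.0 CPM in the KO libraries, and the groups did not overlap. The means were 131 ± 41.3 against 49.9 ± 14.4 CPM (SD, n = 3 mice each; log2 fold change -1.33, SE 0.226, adjusted p = 0.00540), where 0.586% of all genes were called lower. Among DCT-like cells thinned to 1000 UMIs each, 7.29%, 14.98% and 11.0% of the WT and 3.59%, 4.51% and 2.00% of the KO cells in the 3 mice carried a *Cdkn1a* UMI, compared with 20.8%, 39.4% and 31.7% of the WT and 20.2%, 13.8% and 18.3% of the KO cells before thinning. The call rested on the mitochondrial limit, since the log2 fold change was -1.11 (adjusted p = 0.164) at 30% and -0.88 (adjusted p = 0.0775) at 80%, while it was kept without each library in turn (-1.61 to -1.12) and without both *Xist* libraries (-1.39, adjusted p = 0.00469).

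Other measures of DCT-like cells are given beside this result. There were 322 to 406 cells in the WT and 142 to 297 in the KO libraries, with a median of 1899.5 to 3299.5 UMIs in the WT and 1737 to 2300.0 in the KO libraries per cell. The 9 macrophage markers, from the class in which *Cdkn1a* was highest, summed to 648 to 703 CPM in the WT and 493 to 564 CPM in the KO libraries, so the KO libraries were lower for these as well. The cluster also held hemoglobin genes among its leading genes: the 6 erythroid markers summed to 3457 CPM in KO1 and to at most 0.677 CPM in the other libraries. Without KO1 the log2 fold change was -1.61 (adjusted p = 0.00924) for *Cdkn1a* and -1.24 (adjusted p = 0.00746) for *Gdf15*. Endothelial markers summed to 9.20 to 26.1 CPM in the WT and 15.1 to 25.3 CPM in the KO libraries, CNT markers to 5561 to 6686 CPM in the WT and 7105 to 8092 CPM in the KO libraries, and LOH markers to 5133 to 6825 CPM in the WT and 6188 to 9965 CPM in the KO libraries. *Cdkn1a* in barcodes of 1 to 100 UMIs, which hold free RNA, stood at 59.3, 69.4 and 69.8 CPM in the WT and 86.0, 44.5 and 59.6 CPM in the KO libraries. The part of these in the result was not tested.

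Outside DCT-like cells *Cdkn1a* passed the test in none of the other 12 classes. In LOH-like cells it was 38.7, 43.7 and 36.7 CPM in the WT and 35.7, 19.9 and 34.8 CPM in the KO libraries, so KO lay just below WT, as in 10.6% of all genes (log2 fold change -0.39, adjusted p = 0.288). The widest difference upward was in thin limb-like cells, at 119, 295 and 302 CPM in the WT and 356, 709.9 and 476 CPM in the KO libraries, with every KO above every WT library, as in 6.24% of all genes (log2 fold change 1.05) and an adjusted p of 0.613. The 19 dissociation stress genes summed to 12331 to 30488 CPM in the WT and 30776 to 50744 CPM in the KO libraries there, with 18 of 19 positive (median 0.73), and their part in this difference was not tested. In macrophage-like cells, where the gene was highest, the libraries ran 327, 494 and 833 against 587, 479 and 386 CPM and overlapped, as they did in endothelial-like cells (277, 311 and 393 against 578, 261 and 389 CPM, adjusted p = 0.777). PC-like and IC-like cells had log2 fold changes of 0.06 and 0.04.

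The change of *Cdkn1a* and *Gdf15* in DCT-like cells was compared directly with that in LOH-like cells, the segment before it, in a joint fit with the mouse as a block. For *Cdkn1a* the log2 fold change was lower in DCT-like cells by a difference of -0.94 (SE 0.197, adjusted p = 0.0148), and for *Gdf15* by -1.34 (SE 0.284, adjusted p = 0.0158), where 1.36% of all genes were called. For *Cdkn1a* the call was lost without WT2 (adjusted p = 0.0733), WT3 (0.0576), KO1 (0.0524) or KO3 (0.0773), and at a mitochondrial limit of 30% the difference was 0.10 (adjusted p = 0.995). That for *Gdf15* was lost without WT1 (0.0934) or KO1 (0.222) and at the 30% limit (0.911), and both were lost without the mouse block (0.432 and 0.201). Between DCT-like and CNT-like and between PC-like and IC-like cells, where 0.969% and 0.866% of all genes were called, 0 members were. *Rprm*, with 0 UMIs in DCT-like cells, was left out of both comparisons that include this class, so its change was not compared there. These tests were not run without both *Xist* libraries.

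*Cdkn2a*, the other senescence gene among the inhibitors, was almost undetected. There were 20 UMIs in all 28488 cells, 10 of them in macrophage-like cells (median 2.93 CPM) and 4 in a single thin limb-like KO cell, so no class could be tested. In LOH-like cells 0 of 39260638 UMIs were *Cdkn2a*, which allows up to 0.0764 CPM (3 counts), and the limits were 0.218 CPM in DCT-like, 0.144 in CNT-like and 0.108 CPM in IC-like cells, both genotypes together. A difference between WT and KO was not detectable at this depth. These limits, and the intervals below, cover counting error only, and 3′ tags do not tell p16INK4a and p19ARF transcripts apart.

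*Cdkn1b*, the p27 gene, was tested in all 13 classes with 0 called (log2 fold changes -0.74 to 0.42). In macrophage-like cells it was 123, 114 and 119 CPM in the WT and 75.4, 72.9 and 43.4 CPM in the KO libraries, with all KO below all WT libraries (adjusted p = 0.308). The reverse order held in endothelial-like cells, at 122, 119.5 and 122 CPM in the WT and 169, 164 and 145 CPM in the KO libraries (adjusted p = 0.291). Such an order held for 9.87% of all genes in the first class and for 6.08% in the second.

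*Rprm*, which encodes Reprimo, rose in the KO mice, and it was the member with the largest change. In CNT-like cells it was 1.31, 3.75 and 0.337 CPM in the WT and 30.3, 32.0 and 31.1 CPM in the KO libraries, so that the gene was near absence in the WT libraries only. The means were 1.798 ± 1.76 against 31.1 ± 0.823 CPM (SD, n = 3 each; log2 fold change 3.96, SE 0.352, adjusted p = 9.19e-05), where 1.2% of all genes were called higher and the KO libraries lay above in 7.46%. These levels rest on 23 UMIs in 21 WT cells and 295 UMIs in 162 KO cells. At such counts the closeness of the 3 KO values can be chance and was not taken as a result.

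In PC-like cells *Rprm* was 6.69, 8.41 and 5.75 CPM in the WT and 85.6, 20.8 and 19.3 CPM in the KO libraries, from 61 UMIs in 40 WT and 182 UMIs in 101 KO cells. The groups again did not overlap, but KO1, which is also an *Xist* library, stood far above the other two KO libraries. The means were 6.95 ± 1.35 against 41.9 ± 37.9 CPM (log2 fold change 2.59, SE 0.496, adjusted p = 0.0153), where 1.38% of all genes were called higher and 7.34% lay above. Without KO1 the log2 fold change was 1.58 (adjusted p = 0.02), and without both *Xist* libraries 1.72 (adjusted p = 0.037). In CNT-like cells it was 5.08 without WT2, the highest WT library, and 5.14 without both. The call was kept in all 16 alternatives in each of these 2 classes, with log2 fold changes of 3.25 to 5.14 and 1.58 to 3.14.

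IC-like cells followed the same order at a smaller size. *Rprm* was 7.14, 5.15 and 7.61 CPM in the WT and 11.2, 17.0 and 16.4 CPM in the KO libraries there, so every KO library lay above every WT library, as in 5.72% of all genes in this class. The log2 fold change of 1.18 (SE 0.251) missed the threshold with an adjusted p of 0.0711, where 0.268% of all genes were called higher, and it passed in 4 of 15 alternatives, among them that without KO1 (adjusted p = 0.0368) and the *Xist* block (0.0183). Among the 3 clusters that make up the class, the one with most *Rprm* UMIs had 23.3, 17.0 and 22.4 against 18.1, 34.9 and 43.7 CPM and overlapped, from 84, 74 and 70 WT and 171, 97 and 61 KO cells. The whole class had 564, 539 and 401 WT and 531, 302 and 411 KO cells. Its median depth was 2363.5, 2075 and 3905 UMIs in the WT and 11145, 12545 and 2736 in the KO libraries. The mix of clusters thus differed between libraries, and its part in the *Rprm* values of the class was not tested. LOH-like cells held 0.545, 1.91 and 2.62 against 1.35, 4.05 and 2.83 CPM (adjusted p = 0.564). In DCT-like cells 0 of 13743596 UMIs were *Rprm*, which allows up to 0.218 CPM, so it was found neither in WT nor in KO cells of the segment just before the connecting tubule. The difference between the changes in CNT-like and PC-like cells was -1.48 (adjusted p = 0.448) and that between PC-like and IC-like cells -1.37 (adjusted p = 0.441), so an unequal change was not shown.

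Counted as cells, 1.08%, 3.19% and 0.332% of the WT and 18.3%, 14.1% and 16.3% of the KO cells of the CNT-like class carried at least 1 *Rprm* UMI. The exact (Clopper-Pearson) 95% intervals stayed apart, with a highest WT bound of 5.21% and a lowest KO bound of 9.91%. The median depth of these cells was 6630.0 to 8728 UMIs in the WT and 7866 to 8851 in the KO libraries, and thinned to 1000 UMIs the shares were 0.226%, 0% and 0% of the WT and 2.65%, 4.80% and 4.72% of the KO cells. In PC-like cells the shares before thinning were 3.32%, 7.01% and 3.11% of the WT and 44.3%, 14.2% and 14% of the KO cells. Podocyte-like cells, taken here as a class without the gene, had at most 0.207% in any library, at a median depth of 4384 to 5381 UMIs in the WT and 2662 to 3474 in the KO libraries. Free RNA, in barcodes of 1 to 100 UMIs, held *Rprm* at 1.59, 1.48 and 0.165 CPM in the WT and 4.42, 2.53 and 3.43 CPM in the KO libraries.

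Markers of the neighbouring classes were set beside these values, because all 3 classes express the gene. In CNT-like cells the PC markers summed to 11363 to 12392 CPM in the WT and 8635 to 12120.1 CPM in the KO libraries and the IC markers to 674 to 718 CPM in the WT and 523 to 632 CPM in the KO libraries. In PC-like cells the CNT markers summed to 1822 to 3232 CPM in the WT and 1120.3 to 1508 CPM in the KO libraries and the IC markers to 996 to 1597 CPM in the WT and 788 to 1348 CPM in the KO libraries. None of these sums was higher in every KO library than in every WT library. As *Rprm* rose in both classes, such sums cannot show how much of it came with RNA of neighbouring classes. The part of such RNA in the *Rprm* values was not tested. Over all 28488 cells *Rprm* was 2.55, 2.83 and 2.43 CPM in the WT and 13.7, 8.83 and 8.81 CPM in the KO libraries (log2 fold change 2.01, adjusted p = 0.00824, where 1.07% of all genes were called and the KO libraries lay above in 7.79%). That call was lost without WT1 (adjusted p = 0.0606), without WT2 (0.0528) and without both *Xist* libraries (0.0596), although the log2 fold change stayed between 1.82 and 2.36.

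**Figure D3:**
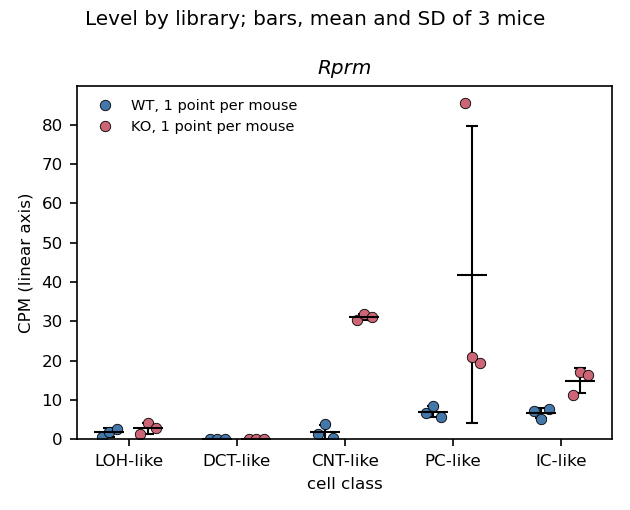
*Rprm* level in CPM (linear axis) in LOH-like, DCT-like, CNT-like, PC-like and IC-like cells, 1 point per mouse (WT blue, KO red), with the mean and SD of the 3 mice as bars. The KO libraries of CNT-like cells sit at 30.3 to 32.0 CPM, above WT libraries of at most 3.75 CPM, and in PC-like cells KO1 stands at 85.6 CPM.

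*Btg2* fell in CNT-like cells. It was 163, 162 and 226 CPM in the WT and 108, 133 and 81.1 CPM in the KO libraries, with no overlap, and the means were 184 ± 36.8 against 107 ± 26.1 CPM (log2 fold change -0.77, SE 0.184, adjusted p = 0.0428), where 1.38% of all genes were called lower and 8.97% lay below in the KO libraries. The call was close to the threshold and was lost without WT3 (adjusted p = 0.122), KO1 (0.193) or KO3 (0.211), without both *Xist* libraries (0.112) and at a mitochondrial limit of 30% (0.563). After thinning, 16.9%, 14.7% and 19.9% of the WT and 9.27%, 10.9% and 9.45% of the KO cells of this class carried a *Btg2* UMI. Elsewhere the gene did not pass: it was 421, 455 and 896 against 147, 359.9 and 602 CPM in podocyte-like cells (adjusted p = 0.420) and 386, 401 and 599 against 485, 599 and 664 CPM in LOH-like cells, where it is abundant (adjusted p = 0.359).

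The change of *Btg2* differed between neighbouring segments. In PC-like cells its log2 fold change was 0.17, and the difference of PC-like minus CNT-like cells was 0.97 (SE 0.120, adjusted p = 1.37e-04, mouse as a block), where 1.21% of all genes were called. It was kept without each library in turn and at a mitochondrial limit of 30%, and lost only without the mouse block (adjusted p = 0.421). *Btg2* is an immediate early gene, and the dissociation stress list, described below with its members, summed to 11033 to 13230.1 CPM in the WT and 10868 to 14377 CPM in the KO libraries in CNT-like and 11486 to 13762 CPM in the WT and 15076 to 19435 CPM in the KO libraries in PC-like cells. The part of tissue dissociation in this difference was not tested.

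*Ccng1* was tested in 13 classes with 0 called and was negative in 11 of them. In DCT-like cells it was 112, 133 and 151 CPM in the WT and 91.2, 89.6 and 107 CPM in the KO libraries, with KO below WT (log2 fold change -0.45, adjusted p = 0.186). *Phlda3* gave 552 UMIs in all, 252 of them in endothelial-like cells, and could be tested in 2 classes, with log2 fold changes of -0.09 in endothelial-like and -0.97 in DCT-like cells (adjusted p = 0.481 in the latter). In PT-like cells all 5 tested members were negative, from -2.25 for *Cdkn1a* to -0.23 for *Cdkn1b*, in this scarce class, where 55.1% of all genes were negative, and the lowest adjusted p among them was 0.347. Of the 16 dissociation stress genes tested there 1 was positive (median -0.87), and of the 7 other p53 targets 0 were (median -0.93).

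*Gdf15*, the secreted stress cytokine, fell in DCT-like and PC-like cells of the KO mice. In DCT-like cells it was 129.6, 125 and 115 CPM in the WT and 22.0, 38.9 and 63.0 CPM in the KO libraries, and every KO library lay below every WT library. The means were 123 ± 7.23 against 41.3 ± 20.6 CPM (SD, n = 3 each; log2 fold change -1.63, SE 0.246, adjusted p = 0.00225). The log2 fold change was -2.11 to -1.24 without each library in turn, and the call was lost only at a mitochondrial limit of 30% (-1.74, adjusted p = 0.151), which left 105 to 128 WT and 48 to 122 KO cells. Without both *Xist* libraries it was -1.23, adjusted p = 0.00465.

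In PC-like cells, where it is most abundant, *Gdf15* was 1092, 1949 and 1814 CPM in the WT and 672, 520.3 and 1002 CPM in the KO libraries, with no overlap (means 1618 ± 461 against 731 ± 246 CPM, log2 fold change -1.11, SE 0.264). Its adjusted p of 0.0497 was at the threshold, where 1.01% of all genes were called lower and 10.5% lay below in the KO libraries, and it passed in 6 of 16 alternatives. It was lost without WT2 (adjusted p = 0.141), WT3 (0.139), KO1 (0.168) or KO2 (0.218), without both *Xist* libraries (0.359) and in DESeq2 (0.192). The WT level rested on 14107 UMIs in 679 cells and the KO level on 3501 UMIs in 280 cells, with up to 462 and 165 UMIs in 1 cell. After thinning, 36.7%, 58.6% and 54.5% of the WT and 28.9%, 24.5% and 42.4% of the KO cells of the class carried a *Gdf15* UMI.

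Neighbouring classes had the same sign without a call. CNT-like cells held 316, 419 and 909.7 against 377, 284 and 309 CPM (log2 fold change -0.77, adjusted p = 0.301) and IC-like cells 167, 206 and 228 against 118, 95.4 and 185 CPM (-0.56, adjusted p = 0.4). Macula densa-like cells were the exception, at 0.43 (adjusted p = 0.420). In the sum of all cells it was 217, 294 and 341 CPM in the WT and 142, 94.9 and 199.5 CPM in the KO libraries, with KO below WT, as in 10.8% of all genes, and an adjusted p of 0.235. Free RNA carried *Gdf15* at 95.1, 128 and 158 CPM in the WT and 56.6, 35.4 and 92.9 CPM in the KO libraries, so it was also lower in each KO library than in each WT library, and its part in the DCT-like result, where levels were near those of free RNA, was not tested.

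**Figure D4:**
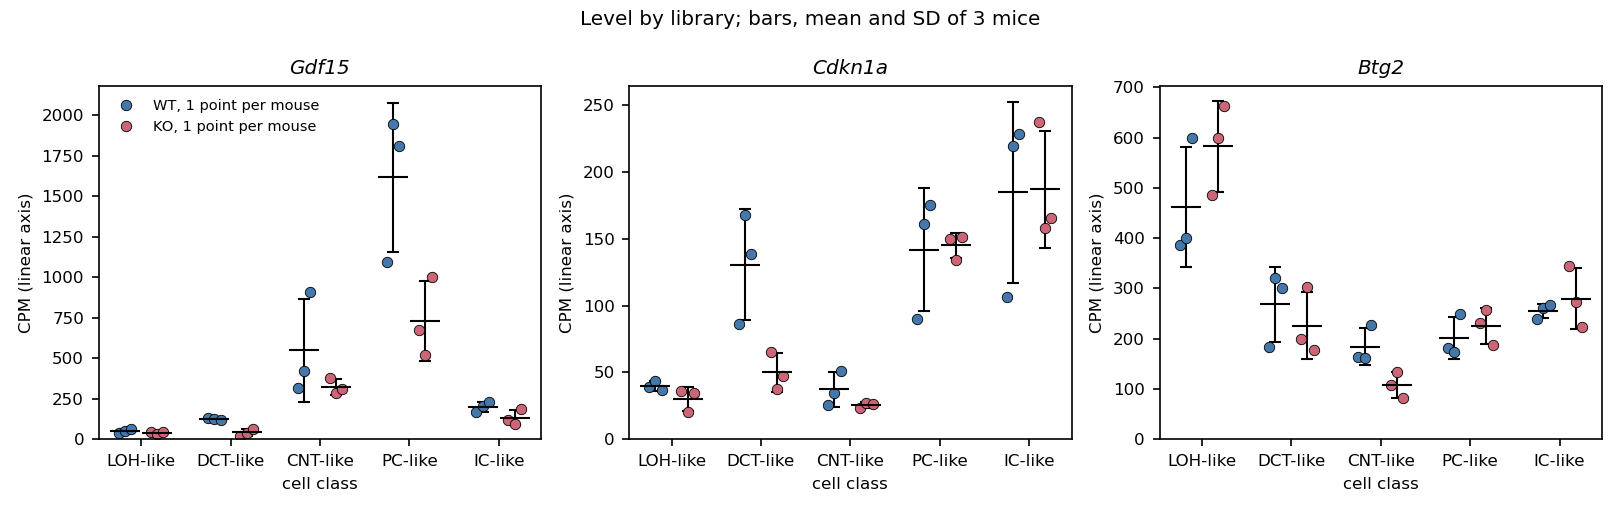
Levels in CPM of *Gdf15*, *Cdkn1a* and *Btg2* in each library (points) of LOH-like, DCT-like, CNT-like, PC-like and IC-like cells (WT blue, KO red), with the mean and SD of the 3 mice as bars. The KO libraries lie below the WT libraries for *Gdf15* in DCT-like and PC-like, *Cdkn1a* in DCT-like and *Btg2* in CNT-like cells.

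Other genes, 114 in 7 lists of p53, cell cycle and stress genes, were read from the same fits. Of their 899 tests 26 passed, compared with 1.46% of all gene tests in the 13 classes. Among the 26, dissociation stress genes made 6 higher and 1 lower in LOH-like and 6 higher in PC-like cells. The lists were chosen with earlier results of these data known. The list of 32 other p53 targets is given by class, with the share of all genes called there. In DCT-like cells 0 of its 25 tested genes were called (median log2 fold change -0.04, all genes 1.44%). In CNT-like cells 0 of 27 were (-0.01, 2.59%), in IC-like cells 0 of 26 (-0.06, 0.612%), and over all cells 0 of 32 (-0.02, 1.07%). At such shares 0 calls in a list of this size show no lack of change. In PC-like cells, where 2.39% of all genes were called, 2 of 28 fell. *Plk2*, a polo-like kinase, was 41.1, 51.5 and 53.5 CPM in the WT and 14.2, 15.4 and 19.8 CPM in the KO libraries (log2 fold change -1.50, adjusted p = 0.00287), and *Cd82*, a tetraspanin, was 122, 118 and 115 CPM in the WT and 62.3, 62.4 and 72.5 CPM in the KO libraries (-0.80, adjusted p = 0.00793, 0.0516 without KO2).

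In LOH-like cells 1 of 29 rose and 1 fell (median 0.03), where 4.25% of all genes were called. *Plk2* there went the other way than in PC-like cells, at 12.9, 17.0 and 22.3 CPM in the WT and 34.6, 31.8 and 28.4 CPM in the KO libraries (log2 fold change 0.83, adjusted p = 0.0166), although without WT2 or KO1 it was not called, and the difference between the 2 classes was not tested. *Pmaip1*, which encodes the apoptosis factor NOXA, was 2.91, 1.75 and 1.96 CPM in the WT and 0.384, 0.162 and 0.590 CPM in the KO libraries (-2.39, adjusted p = 0.0176). Its call was lost without WT1, KO1 or KO2, and it turned to 0.58 when classes came from marker profiles. In macrophage-like cells *Ddit4*, an inhibitor of mTOR signalling, was 74.1, 66.1 and 41.5 CPM in the WT and 199, 119.6 and 154 CPM in the KO libraries (1.46, adjusted p = 0.0298), but without any 1 of the 6 libraries it was not called. The 14 p53 regulators and DNA damage kinases had 0 calls in any of the 13 classes, where 1.46% of all gene tests passed. A list this short holds too few tests for 0 calls to show a lack of change.

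In PC-like cells, where 2.39% of all genes were called, 1 of 4 other CDK inhibitors fell, 1 of 10 G1 cyclin, CDK and RB family genes rose and 1 fell, and 1 of 7 proliferation genes fell. *Ccnd2*, cyclin D2, rose from near absence, at 1.34, 0.673 and 1.08 CPM in the WT and 19.1, 15.4 and 14.7 CPM in the KO libraries (log2 fold change 3.95, adjusted p = 3.37e-04). *Ccnd1*, cyclin D1, fell, at 963, 944 and 539 CPM in the WT and 267, 337 and 470.4 CPM in the KO libraries (-1.13, adjusted p = 0.0241), a call lost without WT1, WT2, KO1 or KO2. *Cdkn2c*, the p18 inhibitor of cyclin D kinases, fell as well, at 21.7, 22.2 and 23.4 CPM in the WT and 4.25, 4.52 and 7.60 CPM in the KO libraries (-1.92, adjusted p = 0.00347). The cyclin D2 and p18 calls were kept without each library in turn, as was that of *Plk2*.

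Of the 16 proliferation genes, the ribonucleotide reductase subunit *Rrm2* fell in CNT-like cells, at 25.3, 19.0 and 15.8 CPM in the WT and 9.12, 6.30 and 8.07 CPM in the KO libraries (log2 fold change -1.31, adjusted p = 0.00713), 1 of 10 tested, a call lost without both *Xist* libraries. *Stmn1*, stathmin, fell in PC-like cells (-1.87, adjusted p = 0.0497), and *E2f1*, an S phase transcription factor, in podocyte-like cells (-0.63, adjusted p = 0.0362, where 1.69% of all genes were called). Each of these last 2 calls was lost without 5 of the 6 libraries: the *Stmn1* call stayed only without WT1 and the *E2f1* call only without WT3. Over all cells *Rrm2* fell too (-0.89, adjusted p = 0.0390), kept only without KO3 among the left-out libraries.

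The 19 dissociation stress genes, immediate early and heat shock genes that rise during tissue digestion, moved with genotype in some classes. In LOH-like cells 6 rose and 1 fell of 19 (median 0.36), and the list summed to 11248 to 13817 CPM in the WT and 15539 to 18308 CPM in the KO libraries. In PC-like cells 6 rose and 0 fell (median 0.27), and in thin limb-like cells 0 of 19 were called, as were 0% of all genes there. *Socs3*, a feedback inhibitor of cytokine signalling, rose in both, at 19.1, 61.2 and 34.5 CPM in the WT and 148, 123 and 139 CPM in the KO libraries in the PC-like class (1.87, adjusted p = 0.00524) and 162, 232 and 206 CPM in the WT and 341, 308 and 314 CPM in the KO libraries in the LOH-like class (0.67, adjusted p = 0.00645). *Nr4a1*, an immediate early nuclear receptor, fell in LOH-like cells, at 238, 264 and 256 CPM in the WT and 103, 115 and 109.7 CPM in the KO libraries (-1.21, adjusted p = 2.29e-05). The chaperone genes *Hspa1a* (1.44) and *Hspa1b* (1.26) rose in PC-like cells, both lost without WT1, WT3, KO1 or KO3, and *Dnajb1* (0.64) rose in LOH-like cells, kept only without KO2 among the left-out libraries.

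In DCT-like and CNT-like cells, where *Cdkn1a*, *Gdf15* and *Btg2* fell, 0 of the 19 stress genes were called, against 1.44% and 2.59% of all genes. Their medians were -0.12 and -0.09, with 5 and 7 of the 19 positive, so most had the sign of these falls. The part of dissociation stress in these falls was not tested. The integrated stress response list, which shares with *Gdf15* a control by ATF4 and CHOP, had 0 of 7 called in DCT-like cells (median -0.05, 3 positive). In PC-like cells 0 of 9 were called (median -0.31, 1 positive), against 2.39% of all genes. In LOH-like cells 2 of 8 rose, the stress protein gene *Nupr1* (1.41, adjusted p = 0.0480, kept only without WT2) and asparagine synthetase *Asns* (1.05, adjusted p = 0.0368, lost whichever library was left out).

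Genes with a pattern most like each member were sought over the 78 points of 13 classes and 6 libraries, as Pearson's r of log2(CPM + 1). The points share libraries and classes, so these values are a description. The most alike were *Krt8* (0.88), *Cdo1* (0.85), *Krt18* (0.83) for *Gdf15*, *H2afz* (0.82), *Gch1* (0.78), *Ier5* (0.78) for *Cdkn1a*, *Npy6r* (0.79), *Krt23* (0.77), *Slc9a4* (0.77) for *Rprm* and *Csrnp1* (0.86), *Zfp36* (0.85), *Dock8* (0.78) for *Btg2*. For *Trp53* they were *Bdp1* (0.91), *Ube2s* (0.90), *Tra2b* (0.90), for *Mdm2* *Grb2* (0.90), *Nfkbia* (0.88), *G3bp1* (0.88), for *Cdkn1b* *Cdc5l* (0.81), *Cnot6l* (0.78), *Smc3* (0.77) and for *Ccng1* *Memo1* (0.82), *Pex13* (0.82), *Prdx3* (0.82). No other member was among the 3 genes most like any of these 8 members.

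**Figure D5:**
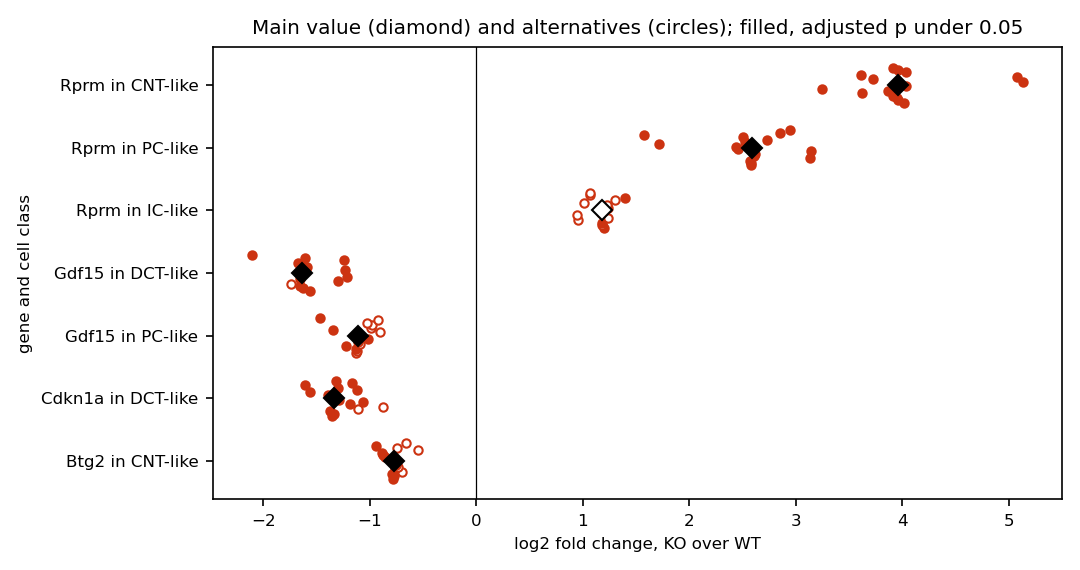
Log2 fold change (KO against WT) of the 6 called pairs of member and class, and of *Rprm* in IC-like cells, as reported (diamonds) and under up to 16 alternatives (circles), with filled symbols for an adjusted p under 0.05. The 2 *Rprm* results stay filled throughout (3.25 to 5.14 and 1.58 to 3.14), while *Gdf15* in PC-like cells is filled in 6 of 16.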

How the data were processed

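Renal cortex cells of 3 WT and 3 KO mice were measured by 3′ single-cell RNA sequencing. The deposited matrices hold raw UMI counts per gene symbol and barcode, which the authors produced from the reads with BD Rhapsody's WTA pipeline (version 1.8) on mm10 with GENCODE vM23. The submitters' processing notes name Scanpy 1.8. Barcodes without a cell were still in the matrices.

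Barcodes with 500 to 60000 UMIs, 200 to 8000 genes and at most 50% mitochondrial UMIs were kept. Automatic doublet calling marked at most 0.457% of cells per library and so had not worked, and the top 6% of doublet scores per library were removed. Cells were scaled to 10000 UMIs, clustered on 2000 variable genes, 30 components and 15 neighbours at resolution 1.0 (scanpy 1.11.5, leidenalg 0.10.2) without the members and list genes, and named from 146 marker genes. The naming rule was adjusted after the clusters were seen.

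Counts were summed per mouse and class and tested with the edgeR quasi-likelihood test (4.0.16, R 4.3.3, TMM, filterByExpr with a minimum count of 10, two-sided, Benjamini-Hochberg over all genes of a class, threshold 0.05). Cells of 1 mouse are not replicates, so sums per mouse were used. Segment differences were class-by-genotype terms with the mouse as a block. The scripts were tested on simulated data. Alternatives were DESeq2 (1.42.0), RLE size factors, no low-count filter, mitochondrial limits of 30% and 80%, no doublet removal, classes from marker profiles, a replicate block, an *Xist* block, the libraries without *Xist* and each library left out.

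All 10 members are named, with up to 3 called genes per list and class, the 3 genes most like each member (for *Phlda3* not reported here) and *Prdm16*. Members and lists were chosen with earlier results of these data known. Promoter sequences are from RefSeq, with all 10 members matched, and gene positions from GENCODE vM21 on GRCm38, the same build as mm10.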

Additional observations from a re-analysis of the deposited data

Results flagged for a closer look

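In 3 of 32 tests the change between genotypes differed between neighbouring segments. *Rprm* was left out of the comparisons that include DCT-like cells, where it was not detected. *Cdkn1a* had a log2 fold change that was lower in DCT-like than in LOH-like cells by a difference of -0.94, and *Gdf15* one that was lower by a difference of -1.34. For *Btg2* the difference of PC-like minus CNT-like cells was 0.97. These are the differences described with their errors in the report, and those of *Cdkn1a* and *Gdf15* were lost at a mitochondrial limit of 30%, the first with a change of sign.

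*Rprm* was also seen above its WT level in cells that got no class and so entered no main comparison by class. They are part of the sum over all 28488 cells, where *Rprm* was called, and of the classes from marker profiles. In cluster 13 it was 9.94, 16.8 and 9.36 CPM in the WT and 68.2, 72.0 and 19.1 CPM in the KO libraries, from 38 WT and 118 KO UMIs, with 67, 52 and 39 WT and 69, 7 and 31 KO cells. In cluster 8 it was 0, 2.84 and 0 CPM in the WT and 14.98, 19.5 and 11.7 CPM in the KO libraries, but from 1 WT and 8 KO UMIs in all. Neither difference was tested. The groups of 3 mice are too small for a test of single outlying libraries.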

How the results depend on the processing

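The 6 member calls (2 higher, 4 lower) became 16 (5 and 11) without the low-count filter. Calls among all genes also rose then in each of the 13 classes. They went from 135 to 366 in DCT-like, from 264 to 616 in CNT-like and from 239 to 693 in PC-like cells. Calls lower in KO were 2 at a mitochondrial limit of 30%, 2 at 80%, 2 without doublet removal and 2 in the libraries without *Xist*. Without each library in turn there were 5 to 6 member calls, 2 to 3 higher and 2 to 4 lower (2 without WT3 and 2 without KO1). The 3 segment differences became 0 without the mouse block and 1 at the 30% limit, and 2 to 4 without each library. The 26 list calls became 108 without the low-count filter, where calls among all genes rose as well. They were 15 at the 30% limit and 10 to 22 without each library (10 without KO1, 15 without KO3). The direction reversed for *Pmaip1* in LOH-like cells with classes from marker profiles (0.58) and for the *Cdkn1a* difference of DCT-like minus LOH-like cells at 30% (0.10). Fewer cells remain at 30%, and otherwise the cause was not tested. *Rprm* in CNT-like and PC-like cells passed under all 16 alternatives. Replicate numbers are shared between WT and KO labels. The deviations of same-numbered libraries from their group means were correlated. In 0 of 13 classes were all 3 correlations above 0.1, but in thin limb-like cells all 3 pairs correlated best with their own number. With 3 libraries per group this cannot exclude that the numbers pair the mice, and the main tests used no pairing. With the replicate block there were 6 member calls and 37 list calls; *Btg2* in CNT-like cells had an adjusted p of 0.0603, *Rprm* in IC-like cells 0.161 and *Gdf15* in PC-like cells 0.0178. Low counts of *Cdkn2a*, *Phlda3* and, outside the distal classes, *Rprm* limit what could be tested.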
